A study of Mus musculus with 13 samples.

Results

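The regions described here carried acetylation of histone H3 at lysine 27 (H3K27ac) in growing and freshly switched C2C12 myoblasts, had lost their peak in wild-type cells by 24 h of differentiation, and yet had a peak at 48 h in both lines with a double hotspot deletion. C2C12 is a mouse myoblast line whose cells leave the cell cycle and fuse into myotubes when serum is lowered. H3K27ac was profiled by chromatin immunoprecipitation and sequencing in unedited cells at 7 times counted from the switch to differentiation medium, namely -24, 0, 6, 12, 24, 48 and 72 h. Edited C2C12 lines were profiled at 48 h in the same medium. The H1 line lacked hotspot H1 and the H3 line lacked hotspot H3. The H23 line was made by deleting H3 in cells that already lacked H2, and the H34 line by deleting H3 in cells that already lacked H4, so 3 of these 4 lines share the H3 deletion. In the last line CRISPR/Cas9 had been used to knock out MyoD. The labels do not say whether a line is 1 clone. Whether Myod1 or a hotspot was disrupted cannot be read from these peak lists. A CRISPR control library from 48 h is not analysed here. Every condition had 1 library, so no test between conditions was possible, and all intervals are 95% Wilson intervals that cover counting error over regions only. Neighbouring regions are not independent, so these intervals are too narrow even for that.

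The peaks of the 7 wild-type lists and of the H23 and H34 lists were merged where they shared at least 1 base, which gave 184203 regions. Of these, 3691 were early-lost: wild-type cells had a peak there at -24 and 0 h but lacked one at 24, 48 and 72 h. The members were the 985 early-lost regions (26.7%, 25.3 to 28.1) that held a peak with a −log10 p of at least 4 in both H23 and H34, where p is the peak caller's own value for the peak. A further 462 early-lost regions had such a peak in H23 alone, 441 in H34 alone, and 1803 (48.8%) in neither line. The members were chosen by the peaks at -24, 0, 24, 48 and 72 h and in H23 and H34, so values from these 7 libraries are descriptions. The libraries at 6 and 12 h and the H1, H3 and Myod1 lines took no part in the choice.

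As background, acetylation of H3K27 is deposited by the coactivators p300 and CBP at active enhancers and promoters, and removed by histone deacetylases when an element is shut down. Myoblasts use enhancers bound by growth-associated factors such as AP-1, and much of this activity is withdrawn when MyoD, with myogenin and MEF2 factors, drives the muscle programme. MyoD already occupies many sites in myoblasts before differentiation begins. Clusters of strongly acetylated enhancers are known as super-enhancers, and the study's title ties its hotspots to their activity.

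The lists held 55585 peaks (Myod1 knockout) to 137960 peaks (H1), and read depth was unknown. The H1, H3, H23 and H34 lists reached down to a −log10 p of 3.01 to 3.03, the wild-type list at 48 h stopped at 4.13 and that of the Myod1 knockout at 4.02. The minimum of 4 was therefore applied to the edited lines for presence of a peak, whereas ranks used any deposited peak. The lists then held 118887 peaks for H23, 128176 for H34, 129027 for H1 and 101905 for H3, against 71281 for wild-type cells at 48 h. List length thus moves with the number of members. With the 55585 strongest peaks of every list, there were 397 members, 17.2% of the early-lost regions of those lists. Of these 397, 128 had the same start and end as 1 of the 985 members. With peaks within 1 kb merged there were 462, of which 85 had the same start and end as 1 of the 985. Neither set is thus a plain subset of the 985. Without the condition on the wild-type library at 48 h, 2602 regions (44.7%) would have been members, and without that at 24 h 1701 (32.4%).

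The share of early-lost regions kept in both double deletions was close to that of other regions that lacked a wild-type peak at 48 h. There are 10 ways to have a peak at exactly 2 of the times -24, 0, 24, 48 and 72 h. In the other 5 patterns without a 48 h peak, 22.4% (24 and 72 h) to 28.2% (-24 and 72 h) of the regions had a peak of at least 4 in both lines, against 26.7% for -24 and 0 h. In the 4 patterns with a 48 h peak the share was 52.1% to 68.8%. Over all 184203 regions, 55.6% had such a peak in H23, 54.1% in H34 and 34.8% in both. For the pattern of 0 and 72 h, for example, 272 of 1019 regions (26.7%) were kept. The kept share of the early-lost regions was level with the median of the other 5 patterns as reported, but 2.42 percentage points above it with peaks within 1 kb merged and 2.32 points above it with equal numbers of strongest peaks.

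**Figure D1:**
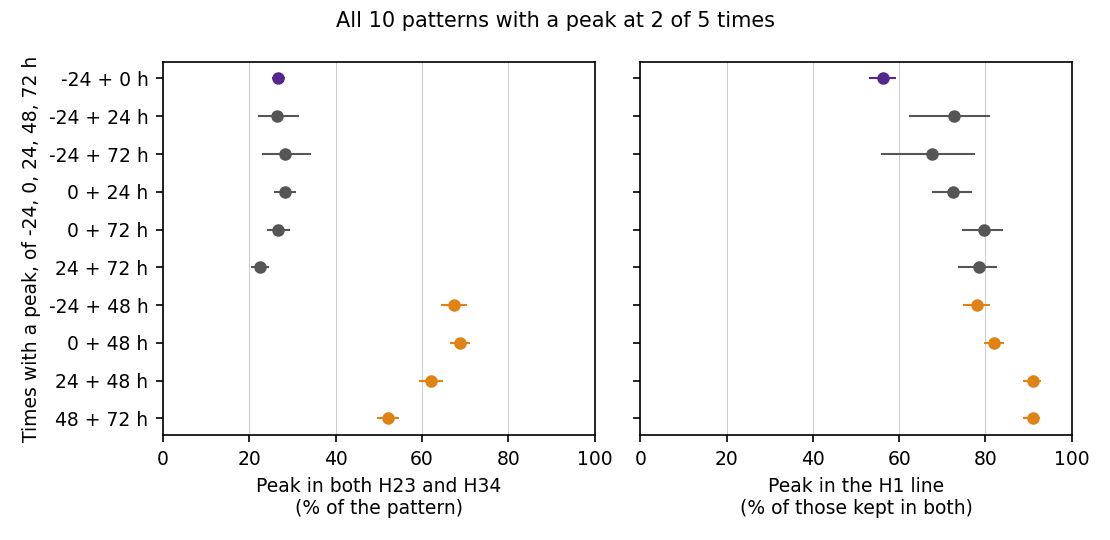
Left, percent of regions with a peak in both double deletion lines for all 10 patterns with a peak at 2 of 5 wild-type times; right, percent of those kept regions that also had an H1 line peak. Points are shares of regions with 95% Wilson intervals, purple marks the members' pattern and orange the patterns that include 48 h. The left value of the members, 26.7%, lies among the other patterns without 48 h, while their right value, 56.2%, is the lowest of the 10.

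In the H1 line the members had a peak less often than the kept regions of the 9 other patterns, and more often than kept regions with no wild-type peak at any time (5795 of 15748, 36.8%). An H1 peak of at least 4 was present at 554 of 985 members (56.2%, 53.1 to 59.3), against 42.5% of all merged regions and 74.8% of the 64066 regions with a peak in both double deletions. Among kept regions of the 5 other patterns without a 48 h peak the H1 share was 67.6% to 79.8%, and in the 4 patterns with one it was 78.1% to 91.1%. The nearest pattern, -24 and 72 h, had 68 kept regions and an interval of 55.8 to 77.6, which overlaps that of the members. The intervals of the remaining 8 patterns did not overlap it. In the H3 line 599 members (60.8%, 57.7 to 63.8) had a peak, against 36.0% of all regions and 74.9% of those in both double deletions. This value lay inside the range of the 5 other patterns, 52.4% to 75%. In the Myod1 knockout 212 members (21.5%, 19.1 to 24.2) had a peak, against 16.4% and 42.4%, and the 5 other patterns ranged from 19.0% to 25%. With equal numbers of strongest peaks, which leave the knockout list whole and shorten all others, the knockout share of the members of that setting was 48.9%.

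Early-lost regions that were kept in the double deletions also had peaks in the other lines far more often than those that were not. Edited lines shared peaks over all merged regions too, so this was not particular to early-lost regions. Of all merged regions 42.5% had an H1 peak, 36.0% an H3 peak and 16.4% a Myod1 knockout peak. Of all regions in both double deletions the shares were 74.8%, 74.9% and 42.4%. Of the 1803 early-lost regions with a peak in neither double deletion, 219 (12.1%, 10.7 to 13.7) had an H1 peak, 83 (4.60%, 3.73 to 5.67) an H3 peak and 35 (1.94%, 1.40 to 2.69) a Myod1 knockout peak. The members exceeded them by 44.1 percentage points (40.6 to 47.5) in H1, 56.2 (52.9 to 59.3) in H3 and 19.6 (17.0 to 22.3) in the knockout. Members are wider regions and so offer more bases to overlap. Read over the -24 and 0 h peaks alone, the differences were 40.7, 54.3 and 18.2 points. The Myod1 knockout difference was 45.6 points with equal numbers of strongest peaks and 30.0 points when the wild-type library at 48 h was ignored. The comparison also held within each class of width of these early peaks. Between 250 and 350 bp, for instance, 132 of 257 members had an H1 peak, against 70 of 542 regions kept in neither line, and 143 had an H3 peak against 20.

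Regions kept in only 1 double deletion fell between. An H1 peak was found at 31.0% (26.9 to 35.3) of the regions kept in H23 alone and at 26.3% (22.4 to 30.6) of those kept in H34 alone. For the H3 line, whose deletion both lines share, the shares were 31.8% (27.7 to 36.2) and 14.3% (11.3 to 17.9). For the Myod1 knockout they were 9.52% (7.17 to 12.54) and 3.63% (2.25 to 5.81). Regions kept in H23 alone thus had H3 and Myod1 knockout peaks more often than regions kept in H34 alone, and the intervals of these 2 pairs did not overlap. The same shares over all merged regions in only 1 double deletion were not computed, so this may be general to the 2 lists. The median percentile was 42.0 of the H23 list for regions kept in H23 alone. For those kept in H34 alone it was 36.2 of the H34 list.

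**Figure D2:**
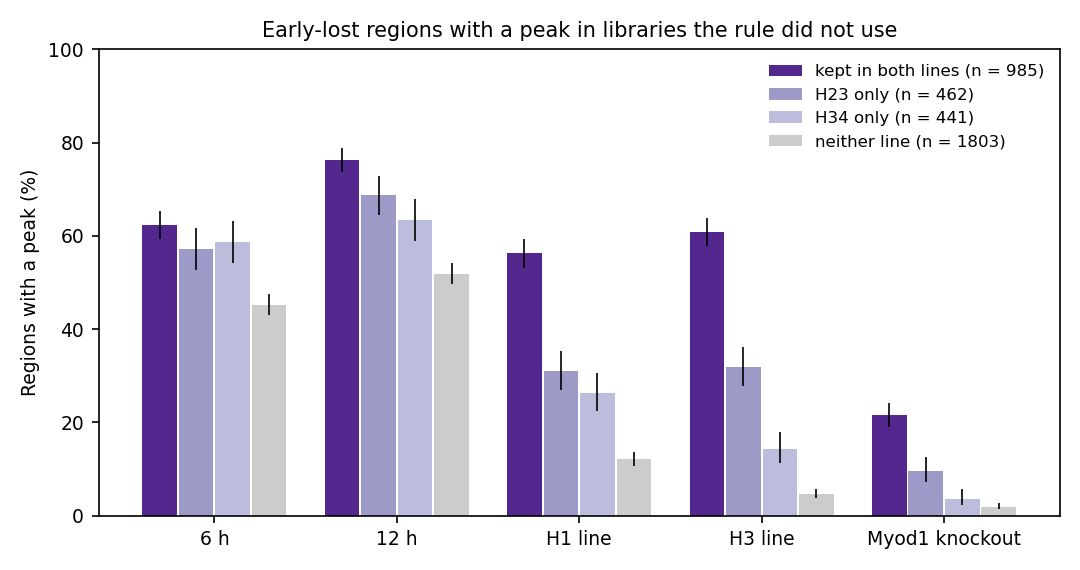
Percent of early-lost regions with a peak at 6 h, at 12 h, and in the H1, H3 and Myod1 lines (−log10 p of at least 4 in the lines), for regions kept in both double deletions, in 1 of them or in neither. Bars are shares of regions and lines are 95% Wilson intervals; members stand at 56.2% in H1, 60.8% in H3 and 21.5% in the Myod1 knockout, and regions kept in neither line at 12.1%, 4.60% and 1.94%.

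Combined, the states divided the members into groups shared with different lines. Peaks in all 5 edited lines were found at 118 members (12.0%), and peaks in the 4 hotspot lines but not in the Myod1 knockout at 289 (29.3%). The double deletions and the H3 line, without H1, shared 192 members (19.5%). The double deletions and the H1 line, without H3, shared 147 (14.9%). The remaining 239 (24.3%, 21.7 to 27) had no peak of at least 4 in H1 or H3, and 204 of these had none in the Myod1 knockout either. States went together. Members with an H1 peak had an H3 peak in 73.5% of cases (69.6 to 77.0) and those without in 44.5% (39.9 to 49.3). A Myod1 knockout peak was found at 26.9% (23.4 to 30.7) of members with an H1 peak and at 14.6% (11.6 to 18.3) of those without. Joint states over all merged regions were not computed. Edited lines shared peaks over all regions too, and more often at stronger peaks. Whether this co-occurrence is particular to the members was therefore not tested.

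Among all pairs of hotspot lines, H23 and H34 shared the most early-lost regions, but these lines also had the most such regions singly. Peaks of at least 4 in both lines of a pair were found at 985 regions for H23 and H34, 746 for H3 and H23, 697 for H1 and H23, 670 for H1 and H34, 662 for H3 and H34 and 532 for H1 and H3. The single lines had 1447 in H23, 1426 in H34, 1032 in H1 and 892 in H3. The regions were merged with the H23 and H34 peaks and not with those of H1 and H3. In all, 407 early-lost regions had a peak in all 4 lines and 1525 (41.3%) in none.

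Most members still had a wild-type peak at 12 h, as did most early-lost regions. A peak was present at 6 h at 614 members (62.3%, 59.3 to 65.3), against 26.9% of all regions, and at 12 h at 752 (76.3%, 73.6 to 78.9), against 34.7%. Over all regions with a peak in both double deletions the background was 52.6% and 58.2%. Of all 3691 early-lost regions, members included, 52.9% had a peak at 6 h and 61.9% at 12 h. Regions kept in neither line had a peak in 45.2% (42.9 to 47.5) and 51.9% (49.6 to 54.2) of cases. The 12 h list held 101331 peaks and the 6 h list 82369. Whether the higher shares at 12 h reflect list length was not tested. Of the members, 522 (53.0%) had a peak at both 6 and 12 h, 230 (23.4%) at 12 h only, 92 (9.34%) at 6 h only and 141 (14.3%, 12.3 to 16.6) at neither. Among regions kept in neither line, 626 (34.7%, 32.6 to 36.9) had lost their peak by 6 h and lacked one at 12 h.

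Presence at 6 and 12 h went with the state in the other lines. Members with a peak at both 6 and 12 h had an H1 peak in 61.7% (57.4 to 65.8), an H3 peak in 67.4% (63.3 to 71.3) and a Myod1 knockout peak in 24.9% (21.4 to 28.8) of cases. Members with a peak at neither time had them in 40.4% (32.7 to 48.7), 48.2% (40.1 to 56.4) and 12.8% (8.23 to 19.3). The intervals did not overlap in any of the 3 lines.

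The peaks of the members ranked near the middle of the double deletion lists and below the middle of the myoblast lists. These lists differ in length, so the ranks show no change between them. With equal numbers of strongest peaks the median -24 h percentile of the 397 members of that setting was 56.0. That value is still a rank within the full list, and this setting removes the weakest peaks. The median member stood at percentile 59.8 of the H23 list (quartiles 42.0 and 73.7) and 56.3 of the H34 list (40.3 and 69.5). The median −log10 p was 11.6 in H23 (4.24 to 72.0) and 9.33 in H34 (4.01 to 40.1), and the median fold enrichment at the summit 6.20 and 5.41. Only 15 members lay among the top 10% of H23 peaks and 8 among those of H34. At -24 h the median percentile was 39.9 (17.4 and 56.0) and at 0 h it was 39.0 (23 and 56.9), with 9 members and 1 member in the top 10% of these lists. Regions kept in neither line stood at 29.4 and 33.7. Stable regions, with a peak at all 7 wild-type times and in both double deletions, stood at 80.8 at -24 h and 90.1 in H23. Where members had a peak in a line that took no part in the choice, the median percentile was 50.6 in H1 (581 members with any deposited peak), 52.4 in H3 (601) and 34.1 in the Myod1 knockout (212).

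Strength in the double deletions went with presence elsewhere. The 102 members whose lower −log10 p over H23 and H34 was under 5 had an H1 peak in 38.2% (29.4 to 47.9), an H3 peak in 37.3% (28.5 to 46.9) and a Myod1 knockout peak in 11.8% (6.86 to 19.4) of cases. The 125 members at 15 or more had them in 81.6% (73.9 to 87.4), 91.2% (84.9 to 95) and 49.6% (41.0 to 58.2). At a −log10 p of 15 or more, the shares of the members lay between those of other sets of the same strength. Of 608 regions at 15 or more that had no peak at any wild-type time, 58.7% had an H1 peak, 80.4% an H3 peak and 29.6% a Myod1 knockout peak. Of all 25137 regions at 15 or more in both lines the shares were 96.8%, 97.8% and 80.3%. Those regions were wider, with a median of 1599 bp against 756 bp for the members. Below a −log10 p of 7 the intervals of the members' H1, H3 and knockout shares overlapped those of all regions of that strength. From 7 to 10 the members had 50.8% (H1), 56.25% (H3) and 18.8% (knockout), against 64.6%, 65.0% and 18.2% of all regions. From 10 to 15 they had 65.5%, 80.0% and 26.8%, against 78.9%, 82.7% and 33.6%. The intervals did not overlap for H1 and H3 from 7 to 10 and for H1 from 10 to 15.

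**Figure D3:**
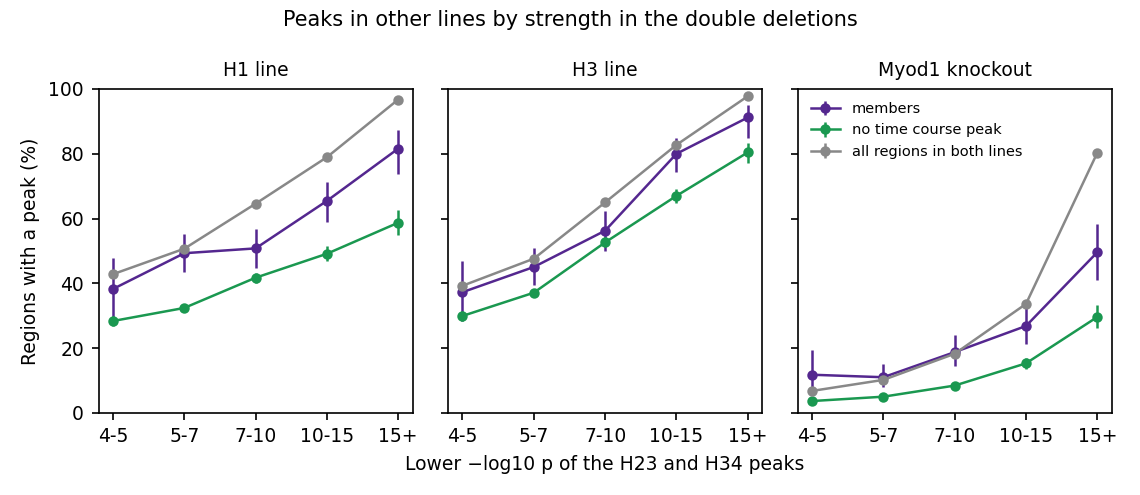
Percent of regions with a peak in the H1 line, the H3 line and the Myod1 knockout, by the lower −log10 p of the H23 and H34 peaks, for members, for regions with no wild-type peak at any of the 7 times, and for all regions in both double deletions. Points are shares with 95% Wilson intervals; at 15 or more, members stand at 81.6%, 91.2% and 49.6%.

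At the limit of the choice, 18 members were tied at the lowest value, a −log10 p of 4.01 in H34, and 102 members had a lower value under 5. A further 25 early-lost regions had a peak in both lines but stayed out because at least 1 of the values was under 4. The closest of these, on chromosome 19 at 16639974 to 16640264, had a value just under 4 in H23 and 4.77 in H34. A value of at least 10 in both lines was reached by 345 members and of at least 20 by 45.

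Members had a larger summed peak width in the double deletion lists than in the myoblast lists. The summed width of their peaks had a median of 212 bp at -24 h, 231 bp at 0 h, 448 bp in H23 and 386 bp in H34. For all early-lost regions it was 194 bp at -24 h and 208 bp at 0 h. Single peaks of the whole lists had medians of 244, 263, 349 and 326 bp in the same order as for the members. The double deletion lists thus held wider peaks than the myoblast lists in general. The wild-type list at 48 h had a median of 420 bp, so wider peaks were not particular to the double deletions. The merged regions had a median width of 632 bp (quartiles 458 and 913, range 174 to 3797), and 1462.5 bp with peaks within 1 kb merged, a setting that joins neighbours. The merged -24 and 0 h peaks alone spanned 329 bp in members and 280 bp in regions kept in neither line, whose merged regions had a median of 314 bp. Members had double deletion peaks by definition, which widen the merged region. At least 1000 bp was reached by 208 members (21.1%), 10 regions kept in neither line (0.555%) and 79.8% of stable regions in both lines. Broader early peaks were kept more often, but they also offer more bases to overlap, and a relation beyond this was not tested. Of early-lost regions with under 250 bp of -24 and 0 h peaks, 21.2% (19.1 to 23.5) were kept, and of those with at least 800 bp 48.4% (39.8 to 57.1).

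**Figure D4:**
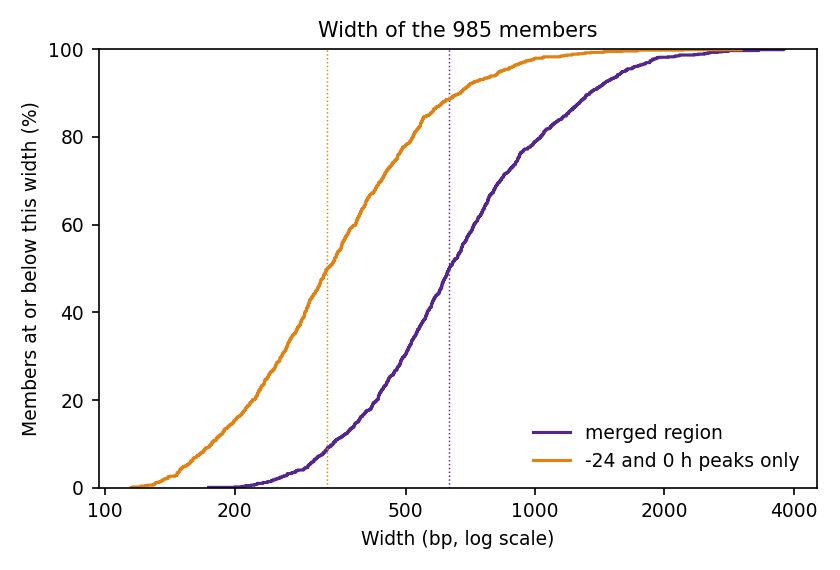
Cumulative share of the 985 members by width in bp on a log scale, for the merged region and for the -24 and 0 h peaks within it. Dotted lines mark the medians, 632 bp and 329 bp.

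Members were merged by overlap, so contact between the double deletion peaks and the myoblast peaks was largely fixed by the rule. The H23 peak touched a -24 or 0 h peak at 971 members, the H34 peak at 963 and both at 950 (96.4%). The summit fell inside the strongest -24 or 0 h peak at 727 members (73.8%, 71.0 to 76.5) in H23 and 737 (74.8%, 72.0 to 77.4) in H34. The H23 and H34 summits were a median of 65 bp apart (quartiles 23 and 178), and 584 pairs (59.3%) lay within 100 bp. Where H1 or H3 had a peak, its summit was as near, at a median of 69.5 bp from the H23 summit for H1 (554 members) and 78 bp for H3 (599 members). Stable regions gave 41, 48 and 42 bp for the same 3 pairs.

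The widest member lay on chromosome 9 at 95537558 to 95541354 in mm9 and spanned 3797 bp. Its scores at -24, 0, 6 and 12 h, deposited per peak with no stated unit, were 18.1, 28.2, 22.4 and 14.6, with no peak afterwards in wild-type cells. At 48 h the −log10 p was 44.3 for H23, 28.2 for H34, 17.9 for H3, 13.6 for H1 and 8.40 for the Myod1 knockout, so all 5 edited lines had a peak there. The nearest wild-type peak at 48 h was 8280 bp away.

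The other wide members differed in how much of their width was present in myoblasts. That on chromosome 17 at 27694054 to 27697376 held 3026 bp of -24 and 0 h peaks within its 3323 bp, with scores of 22.7 and 22.1. Its −log10 p was 14.6 for H23, 12.1 for H34, 16.6 for H3, 9.38 for H1 and 6.13 for the Myod1 knockout, and the nearest 48 h peak of wild-type cells was 148 bp away. By contrast, the region on chromosome 4 at 140396516 to 140399831 held only 370 bp of early peaks within 3316 bp. It had a −log10 p of 63.0 for H23, 19.7 for H34, 9.59 for H3, 8.38 for H1 and 8.40 in the Myod1 knockout, and the nearest 48 h peak of wild-type cells was 18364 bp away. The region on chromosome 9 at 58515516 to 58518338 spanned 2823 bp and had peaks in H34 (18.6), H23 (11.6) and H3 (10.7), and none in H1 or the Myod1 knockout. The last, on chromosome 7 at 25229866 to 25232678, had 41.6 in H23 and 7.28 in H34, 6.50 in H3 and 5.59 in H1, and no Myod1 knockout peak. The chromosome 7 region thus stood high in the H23 list, at percentile 86.5, and below the middle of the H34 list, at 40.3.

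The 5 members with the highest lower −log10 p over H23 and H34 all had a peak at 6 and 12 h and in all 5 edited lines. First was a region of 331 bp on chromosome 5 at 136592117 to 136592447, with 55.6 for H23, 36.0 for H34, 17.9 for H3, 14.8 for H1 and 12.1 for the Myod1 knockout. The nearest 48 h peak of wild-type cells was 147 bp from it, so it sat beside an element still acetylated in wild-type cells. A second, on chromosome 10 at 62409297 to 62410210, was 25329 bp from the nearest 48 h peak of wild-type cells. Its scores at -24, 0, 6 and 12 h were 13.7, 13.6, 12.9 and 13.3. Its −log10 p was 37.5 for H23, 33.4 for H34, 24.4 for H3, 41.0 for H1 and 8.40 in the Myod1 knockout. The next was on chromosome 11 at 115676032 to 115676897, with a score of 7.09 at -24 h and 21.0 at 6 h and a −log10 p of 45.7 for H23, 33.4 for H34, 38.7 for H3 and 36.7 for H1. Another on chromosome 11, at 18777743 to 18778498, stood at percentile 39.9 of the -24 h list and 82.6 of the 12 h list, and had a −log10 p of 38.9 for H23 and 30.8 for H34. The last, on chromosome 5 at 74590753 to 74592257, had the highest H23 value of any member, 72.0, with 30.8 for H34, 40.2 for H3, 38.1 for H1 and 10.8 for the Myod1 knockout.

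Of the 5 members ranked highest in the myoblast lists, 3 had a −log10 p under 10 in H34, and the same 3 lay within 1 kb of a wild-type peak at 48 h. On chromosome 2 at 4933517 to 4933780, the score of 41.2 at -24 h and 36.2 at 0 h fell at percentiles 92.9 and 89.9. The −log10 p there was 23.6 in H23 and 4.77 in H34, no peak was listed in H1, H3 or the Myod1 knockout, and a wild-type 48 h peak lay 268 bp away. On chromosome 17 at 27054059 to 27055140, the values were 47.1 in H23 and 6.41 in H34, with peaks in H1, H3 and the Myod1 knockout and a wild-type 48 h peak at 371 bp. On chromosome 11 at 34646681 to 34647150 they were 23.6 and 9.11, with peaks in H1 and H3, and the distance was 174 bp. The other members, at 134511379 to 134512741 of chromosome 4 and 102110151 to 102111137 of chromosome 11, stood 9037 and 2931 bp from a wild-type 48 h peak, had 44.3 and 26.1 in H23 and 18.6 and 11.1 in H34, and lacked an H1 peak.

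Nearness to a remaining wild-type peak was common among the members as a whole. A wild-type peak at 48 h lay within 1 kb of 384 members (39.0%), and the median distance was 2246 bp. For regions kept in neither line the values were 28.2% and 4472 bp. The order was the other way for the 24 h list, with 34.1% of members and 36.2% of regions kept in neither line within 1 kb of a peak. Where a wild-type peak is that close, loss of the element and a shift of the peak boundary cannot be told apart in peak lists.

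Most members had no other member close by. Members were joined over the distance that super-enhancer callers use by default to stitch peaks (between 12 and 13 kb, here called the stitching distance). With this distance, 832 stood alone, 66 groups had 2 members and 7 groups had 3, and no group was larger. A neighbouring member within it was found for 153 (15.5%, 13.4 to 17.9), a share that was 3.46% with peaks within 1 kb merged and 7.05% with equal numbers of strongest peaks, and the median gap to the next member was 925967 bp. Other peaks were nearby: within the stitching distance a member had a median of 3 other -24 h peaks, with none at 164 members (16.6%), and 743 members (75.4%) had a wild-type 48 h peak. Among the 1803 regions kept in neither line, 681 (37.8%, 35.6 to 40.0) had such a neighbour of their own kind and the largest group had 7. These sets differ in number, and the wider peaks of the H23 and H34 lines join neighbours into 1 region by construction. Neighbouring early-lost regions nonetheless tended to share their state. Adjacent early-lost regions within that distance were counted from each side, so a region or pair can recur and no interval is given. Of 308 such neighbours of members, 146 (47.4%) were members too. Members were 23.8% of 172 neighbours of regions kept in H23 alone and 13.2% of 235 neighbours of regions kept in H34 alone. Of 1017 neighbours of regions kept in neither line, 90 (8.85%) were members. A further 740 (72.8%) were kept in neither line. That share was 29.2% for neighbours of members, 40.7% for those of regions kept in H23 alone and 49.8% for those of regions kept in H34 alone.

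Of the 7 groups of 3, the 3 with the shortest span had different states. On chromosome 5 at 137044166 to 137047085, 3 members lay within 2920 bp together with 1 early-lost region kept in neither line. Of these members 2 had an H1 peak and 1 an H3 peak, none had a Myod1 knockout peak, and their scores at -24 h were 18.1, 37.7 and 27.5. On chromosome 13 at 109388241 to 109394773, none of the 3 members had an H1 or H3 peak and 1 had a Myod1 knockout peak. Their −log10 p in H23 was 15.7, 14.6 and 11.8, and in H34 6.75, 9.40 and 9.33. On chromosome 9 at 54489372 to 54496023, all 3 had an H3 peak (7.49, 10.7 and 5.54) and none had a peak in H1 or the Myod1 knockout. That span of 6652 bp held 9 peaks at -24 h and 10 at 0 h, and none at 24, 48 and 72 h. In this group the peaks were thus present in the 3 lines without H3 and absent from the H1 line.

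The kept share differed between chromosomes. It was highest on chromosome 5, at 37.7% (31.0 to 44.9) of 183 early-lost regions, and lowest on chromosome 14, at 13.5% (9.08 to 19.6) of 163. On chromosome 14, 40.5% of early-lost regions had a peak in H23 and 19.6% in H34, and that chromosome held 1.66% of the bases covered in the H34 list against 2.97% to 3.40% in the other 3 hotspot lines. Without chromosome 14 the kept share was 27.3% (25.9 to 28.8). On the X chromosome 64.5% had a peak in H23 and 37.1% in H34, and on chromosome 17 the order was reversed, at 29.4% and 47.2%. Chromosome 13 gave 23.8% and 38.4%. It held 2.90% of the bases covered in the H23 list, against 4.24% to 4.91% in the other 3 hotspot lines. Chromosome 3 held 4.34% of those in H23, against 5.45% to 7.25%. A low covered share in 1 line was thus not confined to chromosome 14, and only chromosome 14 was left out in turn.

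**Figure D5:**
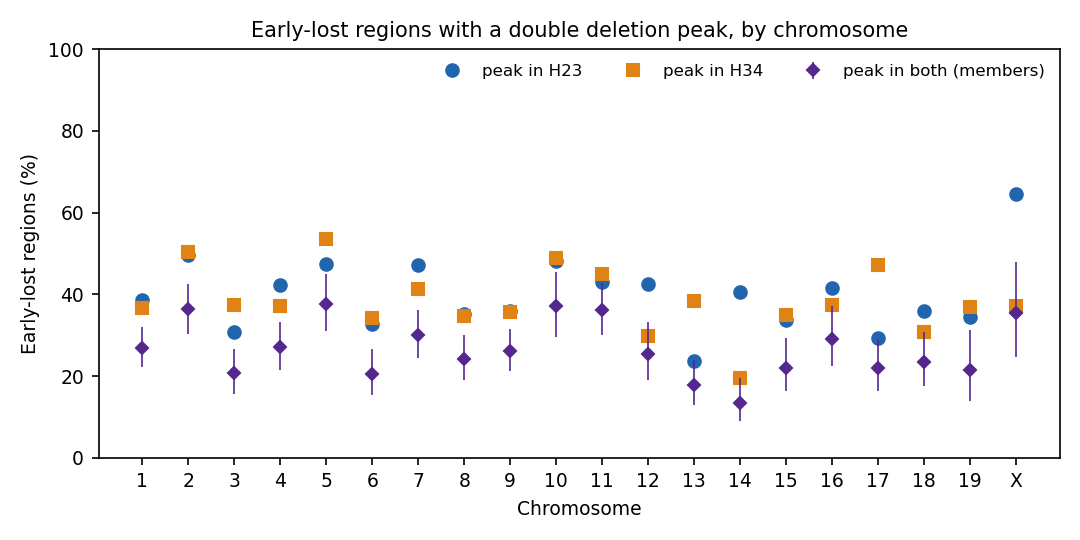
Percent of early-lost regions on each chromosome with a peak of at least 4 in H23, in H34 and in both (members, with 95% Wilson intervals). Chromosome 14 is lowest for H34, at 19.6%, and for both, at 13.5%, and the X chromosome is highest for H23, at 64.5%.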

How the data were processed

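H3K27ac peak lists of 12 libraries were used, 1 per condition. The submitters' processing notes name MACS2 2.1.0 as a tool and mm9 as the genome build. Aligner, filters, control library and cutoffs are not given in the sources used here. The authors' lists at -24, 0, 6, 12, 24 and 72 h hold a deposited score with no stated unit. The deposited lists at 48 h hold a score, a fold enrichment (ratio), a −log10 p, a −log10 q and a summit position per peak. Peak values are the authors' own. They were used to describe, rank or filter peaks within a list, and sizes were not compared between lists. Percentiles are ranks within a full list, also where only the strongest peaks were used.

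Overlap meant 1 shared base. Intervals are 95% Wilson intervals, and those of differences combine them by Newcombe's method. Named regions were the 5 widest members, the 5 with the highest lower −log10 p over H23 and H34, the 5 with the highest lower percentile over -24 and 0 h, and the 3 groups with the most members (ties by span). The members, lists and comparisons were chosen with earlier results of these data known. On 20000 simulated regions, the merging and reading of states recovered all 500 members put in. Coordinates are mm9, counted from 1. The gene and sequence tables at hand were of another build, so no gene or sequence is given and the gene lists were not run. Scripts ran under Python 3.11.15 with matplotlib 3.10.9, pandas 2.3.3 and numpy 2.4.6.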

Additional observations from a re-analysis of the deposited data

How the results depend on the processing

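Of 130 values (13 results under 10 alternatives), 84 stayed within the counting interval of the reported value, or within 1.5 times it for the number of members, and 46 moved. Some of the 84 carry no information. Using assembled chromosomes only returned the same 985 members and left every value as reported. Reading states over the early peaks only cannot change the number, kept share, width, rank or clustering of the members. The 3 differences between members and regions kept in neither line stayed above 0. Shorter lists, wider joins and other absence rules change the set of members by construction. The cause of the shifts was otherwise not tested. Reading states over the -24 and 0 h peaks only, and ignoring the 48 h wild-type library, were chosen after the data were examined. No paired analysis was possible because each condition had 1 library. The lists carry no read depth, which limits what can be said of weak peaks.

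With a −log10 p of at least 5, the kept share of early-lost regions was 23.9% and the H1 share of members 52.2%. With a double deletion peak that overlaps an early peak by 50%, the kept share was 24.3%. Read over the -24 and 0 h peaks only, the H1 share was 52.6%. With peaks within 1 kb merged, there were 462 members, a kept share of 32.1%, a median width of 1462.5 bp, a Myod1 share of 24.7%, a 6 h share of 67.1%, a Myod1 difference of 23.3 points and 3.46% of members with another within the stitching distance. With the same number of strongest peaks, there were 397 members, a kept share of 17.2%, a median width of 777 bp, shares of 51.4% (H1), 72.0% (H3), 48.9% (Myod1), 69.8% (6 h) and 69.5% (12 h), differences of 66.7 (H3) and 45.6 points (Myod1), 7.05% with a neighbour and a median -24 h percentile of 56.0 of the full list. With a peak lacking at 48 and 72 h only, there were 1701 members, a kept share of 32.4%, a median width of 675 bp, shares of 64.1% (H1), 66.2% (H3), 28.3% (Myod1), 73.4% (6 h) and 84.1% (12 h), differences of 49.4 (H1), 61.3 (H3) and 26.4 points (Myod1), and 19.1% with a neighbour. With a peak lacking at 24 and 72 h only, there were 2602 members, a kept share of 44.7%, a median width of 820.5 bp, shares of 72.8% (H1), 74.1% (H3), 31.9% (Myod1) and 72.0% (6 h), differences of 58.2 (H1), 69.6 (H3) and 30.0 points (Myod1), and 21.4% with a neighbour. In the 6 alternatives in which the 5 other patterns without a 48 h peak were also counted, the H1 share of members lay below the lowest of them by 6.10 to 13 points.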
